A study of Mus musculus with 6 samples.

Results

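The 6 genes described here are Lrrtm2, Apof, Col28a1, Sectm1a, Kyat3 and Cfap69, 6 genes outside the GTPase, MHC, chemokine and antiviral families that had higher counts in interferon-gamma libraries of a mouse cell line than in untreated ones. They are 6 of 14701 genes with values. They were chosen by their counts in these libraries, for that difference: Lrrtm2, Apof, Col28a1 and Sectm1a as genes nearly silent in controls, Kyat3 as a neighbour of the guanylate-binding protein genes and Cfap69 as a neighbour of the STEAP genes. Their own differences between the groups are therefore given as descriptions, without a test. What the choice did not use directly is the rest of each neighbourhood, the other genes of each family or pathway, and the promoter letters.

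RNA of 6 IEC 4.1 samples was sequenced, 3 of them after 6 h of interferon-gamma at a dose of 10 ng/ml (replicates 1, 2 and 4) and 3 as untreated controls (replicates 2, 3 and 4). IEC 4.1 is labelled as intestinal epithelium, and the labels name no genetic change. The libraries held 17490689 to 18678543 estimated counts. The label was not borne out by the epithelial identity genes. Of 10 such genes, 7 had values, none passed the low-count filter, and their summed level was 0.412 to 0.661 CPM (counts per 1e6 counts) in interferon-gamma libraries and 0.686 to 0.906 CPM in controls, against 5052 to 5429 CPM and 5133 to 5362 CPM for 7 mesenchymal genes. Each gene with values had a read in at least 1 control, whereas 673 genes were at 0 in all interferon-gamma libraries, so a gene without any control read has no values here.

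Interferon-gamma acts through the kinases Jak1 and Jak2, and many of its early target genes carry the gamma-activated site (GAS). A second wave of factors, including Irf1, binds the interferon-stimulated response element (ISRE). The genes described here belong to quite different systems. Lrrtm2 encodes a neuronal adhesion protein that binds neurexins across excitatory synapses. Apof encodes apolipoprotein F, a liver-secreted component of lipoproteins that in human plasma inhibits lipid transfer. Col28a1 encodes collagen XXVIII, a collagen with von Willebrand factor A domains found around Schwann cells of peripheral nerves in mice. Sectm1a encodes a secreted and membrane-bound ligand of the SECTM1 family, whose human member binds CD7 on T cells and natural killer cells. Kyat3 encodes a kynurenine aminotransferase, which turns the tryptophan product kynurenine into kynurenic acid. Cfap69 encodes a protein of cilia and flagella needed for the sperm tail.

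Promoter windows of 250 bases before to 50 after a start site, from RefSeq on GRCm38.p6, were at hand for 3 of the 6 genes. They are printed because GAS and ISRE letters are the sequence feature most directly tied to interferon-gamma, together with the Stat2 window, which lies wholly inside the annotated span of Apof. Capitals mark the only matches found, GAS (TTCNNNGAA) in the Col28a1 window and ISRE (TTCNNTTTC) in the Stat2 window. The windows are Kyat3 at chr3:142700798-142701097 (plus strand), Cfap69 at chr5:5664183-5664482 (minus strand), Col28a1 at chr6:8192568-8192867 (minus strand) and Stat2 at chr10:128270248-128270547 (plus strand), each written 5′ to 3′.
Kyat3: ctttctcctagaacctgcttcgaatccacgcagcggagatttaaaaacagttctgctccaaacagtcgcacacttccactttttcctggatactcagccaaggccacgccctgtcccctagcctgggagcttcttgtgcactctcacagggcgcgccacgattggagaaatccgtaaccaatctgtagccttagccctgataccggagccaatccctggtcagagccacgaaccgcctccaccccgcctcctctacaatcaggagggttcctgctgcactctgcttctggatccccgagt
Cfap69: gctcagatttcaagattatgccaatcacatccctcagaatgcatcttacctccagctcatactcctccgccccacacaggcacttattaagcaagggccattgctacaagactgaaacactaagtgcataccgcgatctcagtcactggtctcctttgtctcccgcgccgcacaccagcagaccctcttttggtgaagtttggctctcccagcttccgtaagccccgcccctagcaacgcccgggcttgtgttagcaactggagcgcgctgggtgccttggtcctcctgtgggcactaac
Col28a1: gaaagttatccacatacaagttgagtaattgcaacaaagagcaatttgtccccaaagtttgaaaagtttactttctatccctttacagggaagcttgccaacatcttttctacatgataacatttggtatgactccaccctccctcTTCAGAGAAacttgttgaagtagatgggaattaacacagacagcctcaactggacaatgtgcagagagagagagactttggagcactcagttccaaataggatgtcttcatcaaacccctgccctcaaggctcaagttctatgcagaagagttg
Stat2: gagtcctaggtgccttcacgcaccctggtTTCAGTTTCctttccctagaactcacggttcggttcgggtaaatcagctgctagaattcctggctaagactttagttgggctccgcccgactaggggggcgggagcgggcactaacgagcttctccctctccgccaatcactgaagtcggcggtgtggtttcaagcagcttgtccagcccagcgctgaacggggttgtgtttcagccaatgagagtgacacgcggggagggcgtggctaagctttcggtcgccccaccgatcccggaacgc

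The Kyat3 and Cfap69 windows held neither motif. The Col28a1 window held TTCAGAGAA, starting 104 bases before the start site, and the Stat2 window held TTCAGTTTC, starting 221 bases before it. The Col28a1 start site used lies at 8192617, as in the GENCODE transcript Col28a1-201. The RefSeq span of the gene begins further upstream, at 8193709, and no window was at hand for that end. GAS was searched as TTCNNNGAA and ISRE as GAAANNGAA or TTCNNTTTC, covering both strands. Of 32851 RefSeq windows of the same length, 8.3% held GAS and 8.56% held ISRE. For comparison, all 5 guanylate-binding protein genes beside Kyat3 had an ISRE match in a window, 58 bases before the start in Gbp2 and 136 bases before it in Gbp2b. Of 3 Steap2 windows, 1 held both motifs, while those of Steap1 and Gtf2b held neither. A match is a description of letters and not a binding site, and the absence of a match says only that these letters are not in the window.

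In all 6 genes the 3 interferon-gamma libraries lay above the 3 controls, which the choice of genes fixed. Over all 11423 genes tested, 24.7% had every interferon-gamma library above every control. At an adjusted p under 0.05 (edgeR's quasi-likelihood test, Benjamini-Hochberg over all genes tested), 19.9% of tested genes rose, 18.1% fell and 4.03% rose at least 2-fold. These were 2278 rises and 2069 falls, against 1775 and 2823 with upper-quartile scaling and 1644 and 3124 on total counts. Counts of rises and falls in the lists and neighbourhoods below stand beside the shares of 19.9% and 18.1%. All 6 genes passed the low-count filter, but Lrrtm2, Apof, Col28a1 and Sectm1a passed it only through their interferon-gamma libraries. So did Steap4, Ido2 and Gbp5, tested below, and their calls are not independent of the filter.

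**Figure D1:**
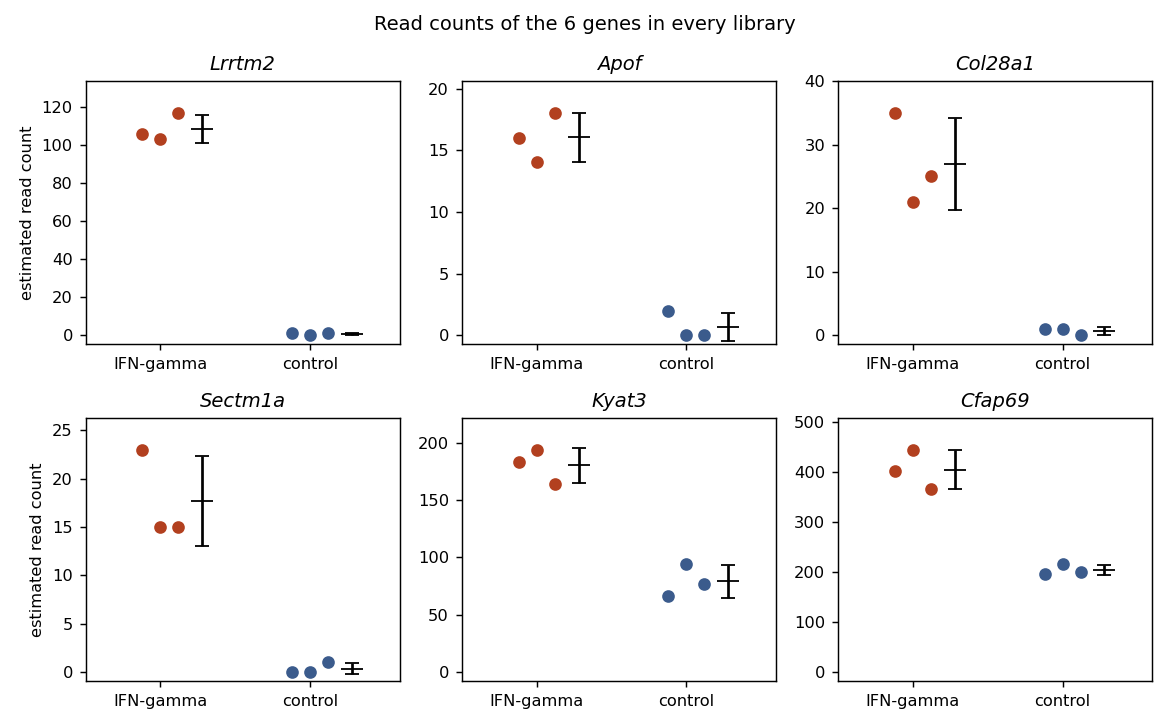
Estimated read count of each of the 6 genes in every library (points), with interferon-gamma on the left and control on the right of each panel, and the mean ± SD of 3 libraries as a black bar. No control of Lrrtm2, Apof, Col28a1 or Sectm1a exceeded 2 counts, while Kyat3 and Cfap69 were well detected in both groups.

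Lrrtm2 (NCBI Gene 107065, chr18:35209003-35215024, minus strand, GRCm38.p6) had 106, 103 and 117 counts in interferon-gamma libraries, against 1, 0 and 1 counts in controls. The interferon-gamma libraries were close to each other, and no control held more than a single read. Their totals of 326 and 2 counts gave a depth-scaled ratio of 173 with an exact 95% interval of 47.6 to 1440, an interval that covers counting error only, as do those below. Mean levels were 6.15 ± 0.647 CPM with interferon-gamma and 0.0353 ± 0.0306 CPM in controls (SD, n = 3 each). Scaled for length, Lrrtm2 stood at 1.73 ± 0.171 TPM (length-scaled transcripts per 1e6) with interferon-gamma and 0.0133 ± 0.0115 TPM in controls.

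The gene sits wholly within Ctnna1, which encodes the adherens junction protein alpha-E-catenin on the opposite strand. The 3 GENCODE transcripts of Ctnna1 that span it have 0 exon bases inside Lrrtm2, and 2 shorter ones have 69 and 95. Ctnna1 averaged 388 ± 16.8 CPM with interferon-gamma and 376 ± 13.4 CPM in controls, a log2 fold change of 0.04 ± 0.047 (SE between replicates, edgeR adjusted p = 0.536). Lrrtm2 counts were 1.58%, 1.47% and 1.70% of Ctnna1 counts with interferon-gamma, against 0.0136%, 0% and 0.0145% in controls. A stranded count is not stated in the sources used here, and without one reads from Ctnna1 introns cannot be told apart from Lrrtm2 reads. The count divided by the length-scaled FPKM value implied a transcript of 5395 to 5407 bases in the 3 interferon-gamma libraries, beside 5673 exon bases of the GENCODE transcript Lrrtm2-201.

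Of 20 other synaptic adhesion genes, 12 had values and 9 were tested. Of these, 2 rose and 2 fell, beside shares of 19.9% and 18.1% over all genes tested. Their median log2 fold change was 0.07, beside 0.01 over all genes tested. Flrt2, an adhesion protein that binds latrophilins, rose by 1.70 ± 0.087 on the log2 scale (48.3 ± 3.42 CPM with interferon-gamma and 14.8 ± 1.11 CPM in controls, SD, n = 3 each, edgeR adjusted p = 8e-14). Lrrc4c, which encodes the netrin-G ligand NGL-1, rose by 0.75, a call lost without control replicate 2 (edgeR adjusted p = 0.0562), without control replicate 4 (edgeR adjusted p = 0.103) and with DESeq2 (adjusted p = 0.0562). The latrophilins Adgrl1 (log2 -0.43, edgeR adjusted p = 3.61e-06) and Adgrl3 (log2 -0.39, edgeR adjusted p = 0.00126) fell. The closest relative with tested values, Lrrtm4, had a log2 fold change of -0.07 at 0.620 CPM with interferon-gamma and 0.654 CPM in controls.

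Of 8 neuronal markers, 4 had values, and their summed level was 310 to 345 CPM in interferon-gamma libraries and 20.7 to 24.1 CPM in controls. Nearly all of it was the tubulin gene Tubb3, which rose to 310 ± 21 CPM with interferon-gamma, against 7.60 ± 0.982 CPM in controls (log2 5.35, edgeR adjusted p = 2.51e-22). The synaptic vesicle gene Syn1 (log2 -0.46, edgeR adjusted p = 0.0134) and the microtubule gene Map2 (log2 -0.36, edgeR adjusted p = 0.0211) fell, and Syt1 had 0 or 1 count per library. Rbfox3, Snap25, Elavl4 and Stmn2 had no values here. The part of Tubb3-expressing cells in the Lrrtm2 counts was not tested. Fewer or more cells of a type and less or more RNA per cell cannot be told apart in bulk samples.

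Apof (NCBI Gene 103161, chr10:128268699-128271250, plus strand) had 16.02, 14.04 and 18.03 estimated counts with interferon-gamma, against 2, 0 and 0 in controls. Every interferon-gamma library was far above every control, and a single control held both control reads. The ratio of totals, 48 against 2 rounded counts, was 25.5 (95% interval 6.69 to 217), the lowest of the 4 nearly silent genes. In interferon-gamma libraries Apof had the lowest mean CPM of the 6, with levels of 0.907 ± 0.145 CPM with interferon-gamma and 0.0355 ± 0.0614 CPM in controls. On the TPM scale it stood at 0.673 ± 0.110 with interferon-gamma.

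These reads come from a locus shared with Stat2, which encodes the interferon signalling factor STAT2. In RefSeq the end of Apof overlaps the start of Stat2 by 753 bases on the same strand, whereas in GENCODE the single transcript Apof-201 ends 405 bases before Stat2. The RefSeq span of Apof runs 1097 bases past the GENCODE end, over the first exon of Stat2-201 and 533 bases into the intron after it. The counts implied an Apof transcript of 2032 to 2062 bases, longer than the 1258 exon bases of Apof-201, so the counted model reached past the GENCODE transcript. Stat2 had 201 ± 5.76 CPM with interferon-gamma and 14.9 ± 1.04 CPM in controls (log2 3.76 ± 0.063, edgeR adjusted p = 1.98e-21).

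Apof was the only gene of the 6 with counts that were not whole, by 0.02, 0.04 and 0.03 in the interferon-gamma libraries, and Stat2 carried the complements 0.98, 0.96 and 0.97. The sum of both was whole to within 0.005 in all 6 libraries, so single reads had been divided between them. Apof counts were 0.433%, 0.379% and 0.545% of Stat2 counts with interferon-gamma, against 0.719%, 0% and 0% in controls. Those shares overlapped between the groups, but the control shares rest on 2 Apof reads in total, too few for a comparison. How many Apof reads lay in the stretch shared with Stat2 cannot be read from counts per gene and was not tested.

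Around Apof, 16 neighbours within 200 kb were tested and 4 rose, against a share of 19.9% over all genes tested. Beside Stat2 these were Rbms2 (log2 0.30, edgeR adjusted p = 8.52e-05), Baz2a (log2 0.33, edgeR adjusted p = 7.31e-05) and Coq10a (log2 0.40, edgeR adjusted p = 0.00251). Timeless, a circadian and replication gene ending 15.8 kb before Apof, had a log2 fold change of 0.15 (edgeR adjusted p = 0.0509). Apon, another apolipoprotein gene 12.8 kb away, and the interleukin subunit gene Il23a were too low to be tested, with 3, 9 and 4 Apon counts with interferon-gamma and 4, 5 and 1 in controls.

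Among 24 other lipoprotein and lipid transfer genes, 18 had values, 9 were tested, 2 rose and 3 fell, with a median log2 fold change of -0.02. Over all genes tested, 19.9% rose and 18.1% fell. Pltp, a phospholipid transfer protein gene, rose by 0.26 on the log2 scale (edgeR adjusted p = 0.00312). The cholesterol exporter gene Abca1 fell to 1.80 ± 0.498 CPM with interferon-gamma, against 3.89 ± 0.422 CPM in controls (log2 -1.11, edgeR adjusted p = 8.13e-05). Apoe fell by 0.53 and the endocytic receptor gene Lrp1 by 0.49 on the log2 scale (edgeR adjusted p = 0.00867 and 1.39e-06). Of 8 hepatocyte markers, Apoa1 and Cyp2e1 had values, summed to 0.0551 to 0.111 CPM with interferon-gamma and 0.0528 to 0.107 CPM in controls, and Alb had no values here.

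Col28a1 (NCBI Gene 213945, chr6:7997100-8193709, minus strand) had 35, 21 and 25 counts with interferon-gamma, against 1, 1 and 0 in controls. Replicate 1 was highest among the interferon-gamma libraries, and the lowest of them was far above every control. The totals of 81 and 2 counts gave a ratio of 43.1 (95% interval 11.6 to 362). Levels were 1.53 ± 0.398 CPM with interferon-gamma and 0.0355 ± 0.0307 CPM in controls, and 0.490 ± 0.135 TPM with interferon-gamma. The implied length of 4497 to 4929 bases lay above the 4230 exon bases of the longest GENCODE transcript, Col28a1-201, whereas that of Lrrtm2 lay below its exon bases. It was far above the 214 to 749 bases of the 3 short GENCODE transcripts.

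The nearest neighbour of Col28a1, Mios, 15.4 kb away, had a log2 fold change of -0.08 (edgeR adjusted p = 0.394). Of 4 neighbours tested, only Umad1 passed (log2 0.31, edgeR adjusted p = 0.0131), and its call was lost without interferon-gamma replicate 4 (adjusted p = 0.0545) or control replicate 4 (adjusted p = 0.085). Among 12 other collagens with von Willebrand factor A domains, 10 had values, 6 were tested, 1 rose and 4 fell, with a median log2 fold change of -0.25. The shares over all genes tested were 19.9% risen and 18.1% fallen. Col6a3 rose to 11.6 ± 1.6 CPM with interferon-gamma, against 4.39 ± 0.289 CPM in controls (log2 1.40 ± 0.125, edgeR adjusted p = 8.3e-09). The partner chains of collagen VI, Col6a1 (log2 -0.31, edgeR adjusted p = 5.65e-05) and Col6a2 (log2 -0.27, edgeR adjusted p = 0.0024), fell, as did the anchoring fibril gene Col7a1 (log2 -0.71, edgeR adjusted p = 3.37e-07). Col12a1 fell by 0.22 on the log2 scale (edgeR adjusted p = 0.0141), a call lost without control replicate 4 (adjusted p = 0.0653). Of 7 tested mesenchymal markers, 5 fell and 2 rose, with a median log2 fold change of -0.33, among them Pdgfra (log2 -0.65, edgeR adjusted p = 1.23e-07) and the fibrillar collagen gene Col3a1 (log2 -0.42, edgeR adjusted p = 1.37e-06). Their summed level, given above, overlapped between the groups, and Vim, the most abundant of them, rose (log2 0.30, edgeR adjusted p = 2.63e-05). The part of these cells in the collagen values was not tested.

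Of 6 Schwann cell markers, 5 had values, summed to 6.88 to 7.79 CPM with interferon-gamma and 4.25 to 4.96 CPM in controls. The receptor gene Erbb3 rose (5.96 ± 0.545 CPM with interferon-gamma and 2.88 ± 0.125 CPM in controls, log2 1.04, edgeR adjusted p = 3.35e-06). S100b was at 0 in all interferon-gamma libraries, and Sox10 had no values here. The part of such cells in the Col28a1 counts was not tested.

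Sectm1a (NCBI Gene 209588, chr11:121067395-121097153, minus strand in GENCODE) had 23, 15 and 15 counts with interferon-gamma, against 0, 0 and 1 in controls. Interferon-gamma replicate 1 was the highest, and the 3 controls shared a single read. The ratio of the totals 53 and 1 was 56.4, with a 95% interval of 9.69 to 2270, the widest of the 6. Levels were 0.996 ± 0.247 CPM with interferon-gamma and 0.0176 ± 0.0305 CPM in controls, or 1.18 ± 0.318 TPM and 0.0233 ± 0.0404 TPM. The implied length was 1255 to 1299 bases, beside 1302 exon bases of Sectm1a-203 and 1692 of Sectm1a-201. Its counts were whole in every library. Its near copy Sectm1b, 3837 bases away in GENCODE, had no values here, so a division of reads between the copies cannot be checked.

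None of the 3 Sectm1a relatives and partners with values could be tested. Cd7, the gene of the human SECTM1 receptor, lies 27.9 kb away and had 0 counts in all interferon-gamma libraries and 0, 1 and 0 in controls. Tnfrsf18 had 2, 1 and 1 counts with interferon-gamma and 1, 2 and 1 in controls, and its ligand gene Tnfsf18 had 2, 2 and 2 with interferon-gamma and 1, 0 and 1 in controls. Farther out, 8 neighbours of Sectm1a were tested and 4 rose, none of them 2-fold, against a share of 19.9% risen over all genes tested. The lactate exporter gene Slc16a3, 108.4 kb away, had log2 0.76 ± 0.109 (172 ± 17.7 CPM with interferon-gamma and 102 ± 7.79 CPM in controls, edgeR adjusted p = 1.13e-08). Narf had log2 0.75 (edgeR adjusted p = 1.63e-08), and Cybc1, a chaperone gene of the phagocyte NADPH oxidase, had log2 0.56 (edgeR adjusted p = 9.65e-08). Hexdc, the nearest of the 4, had log2 0.19 (edgeR adjusted p = 0.0317), a call lost with 9 of the alternative settings. The nearest tested genes on either side, Csnk1d (log2 -0.05) and Ogfod3 (log2 -0.17), did not pass. Of 8 leukocyte markers, 3 had values, summed to 1.59 to 2.09 CPM with interferon-gamma and 1.95 to 2.66 CPM in controls, and Ptprc was at 0 in all interferon-gamma libraries.

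A total of 1 to 3 control counts was found in 1643 genes, and most of them stayed near silence. Their median total in the interferon-gamma libraries was 1 count, the 95th percentile was 9, and 635 were at 0. Lrrtm2, Col28a1, Sectm1a and Apof ranked 11, 18, 21 and 24 by that total, and 24 genes, or 1.46%, reached at least the 48 counts of Apof. The ranks describe genes chosen for being high and carry no test.

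**Figure D2:**
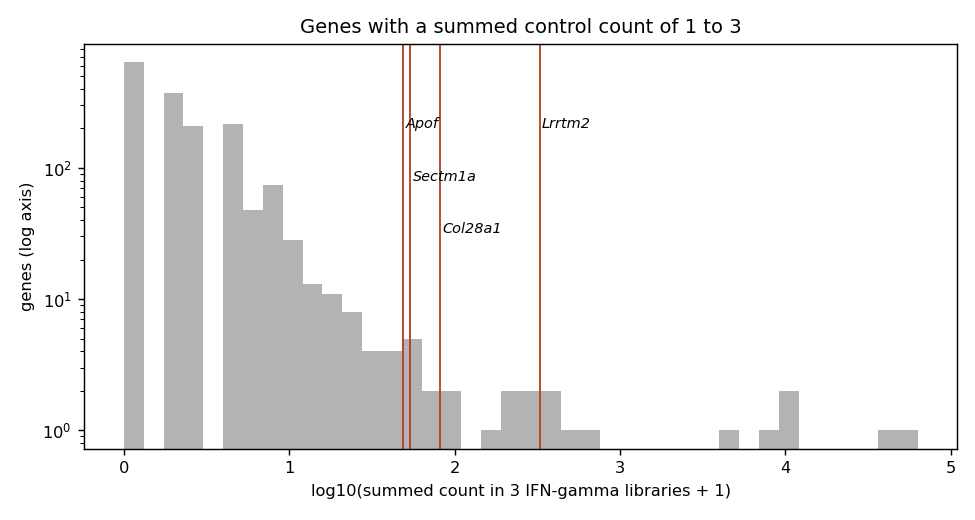
Histogram of the summed count in the 3 interferon-gamma libraries, as log10(count + 1), for the 1643 genes with a summed control count of 1 to 3, with the number of genes on a log axis and Lrrtm2, Apof, Col28a1 and Sectm1a as vertical lines. Most genes lie at 0 to 3 counts, and the 4 lines lie in the sparse right tail, from 48 to 326 counts.

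Kyat3 (NCBI Gene 229905, chr3:142701019-142744911, plus strand) had 183, 194 and 164 counts with interferon-gamma, against 66, 94 and 77 in controls. The groups did not overlap. Levels were 10.2 ± 0.513 CPM with interferon-gamma and 4.19 ± 0.758 CPM in controls, a difference of 1.27 ± 0.151 in log2 CPM (SE, n = 3 each). In TPM they were 8.61 ± 0.208 with interferon-gamma and 3.72 ± 0.881 in controls. Of 1866 other tested genes with a mean CPM within 2-fold of that of Kyat3, 49 had a log2 fold change at least as high. This standing describes a gene chosen for its rise and carries no test. The implied length was 1826, 1822 and 1727 bases in interferon-gamma replicates 1, 2 and 4, against 1948, 1842 and 1793 bases in control replicates 2, 3 and 4. These lengths overlapped between the groups.

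Upstream of Kyat3 lie 5 guanylate-binding protein genes on the same strand, which encode large interferon-induced GTPases that attack intracellular microbes. All 5 rose, Gbp2, the nearest at 63.0 kb, to 2693 ± 67.1 CPM with interferon-gamma, against 9.09 ± 0.0875 CPM in controls (log2 8.21, edgeR adjusted p = 1.02e-25). Gbp2b rose by 9.33, Gbp7 by 8.22 and Gbp3 by 6.83 on the log2 scale, and Gbp5 had 1636, 1580 and 1459 counts with interferon-gamma, against 0, 2 and 1 in controls. These rises entered the choice of Kyat3 and are no independent evidence about it. Reads of Gbp2, Gbp2b, Gbp3 and Gbp7 were partly divided between them, so their single values are uncertain. Kyat3 moved far less than this cluster: its count was 0.388%, 0.387% and 0.358% of the Gbp2 count with interferon-gamma, against 38.6%, 55.6% and 44.3% in controls.

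On the other side of Kyat3 both tested neighbours rose slightly. Gtf2b, the general transcription factor TFIIB gene 20.3 kb away, had 62.8 ± 1.82 CPM with interferon-gamma and 52.2 ± 2.21 CPM in controls (log2 0.27 ± 0.043, edgeR adjusted p = 0.000971). The kinase gene Pkn2, 46.0 kb away, had log2 0.20 (edgeR adjusted p = 0.00384), a call lost on total counts (adjusted p = 0.0515). Kyat3 thus stood between a cluster with log2 fold changes of 6.83 to 10.52 and genes at 0.20 to 0.27. Its count was 16.4%, 17.4% and 14.9% of the Gtf2b count with interferon-gamma, against 7.05%, 9.26% and 7.70% in controls.

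Of 14 other kynurenine pathway genes, 7 had values, 6 were tested, 2 rose and none fell, with a median log2 fold change of 0.12. Shares over all genes tested were 19.9% risen and 18.1% fallen. For the falls, the list also held 0 at an unadjusted p under 0.05 in edgeR and 0 with DESeq2 and with limma-voom. Ido2, an enzyme of the first step from tryptophan, rose to 7.03 ± 1.24 CPM with interferon-gamma, against 0.106 ± 0.141 CPM in controls (log2 5.96, edgeR adjusted p = 7.37e-12). Its difference in log2 CPM, with the prior count of 2, was 5.23 ± 0.542 (SE, n = 3 each). Ido2 passed the low-count filter only through its interferon-gamma libraries. Gpr35, a receptor activated by kynurenic acid, rose to 5.40 ± 0.915 CPM with interferon-gamma, against 2.51 ± 0.679 CPM in controls (log2 1.11 ± 0.262, edgeR adjusted p = 4.27e-05). The other aminotransferase genes that can act on kynurenine, Kyat1 (log2 -0.27, edgeR adjusted p = 0.278) and Got2 (log2 0.01, edgeR adjusted p = 0.957), did not pass. Ido1, Kmo, Kynu and Aadat had no values here.

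Cfap69 (NCBI Gene 207686, chr5:5579278-5664232, minus strand) had 402, 445 and 367 counts with interferon-gamma, against 197, 216 and 200 in controls. It was the most abundant of the 6 in CPM, at 22.8 ± 1.5 CPM with interferon-gamma and 10.8 ± 0.576 CPM in controls, and the groups did not overlap. The difference was 1.06 ± 0.069 in log2 CPM (SE, n = 3 each), the smallest of the 6 and the one with the smallest error. In TPM it was at 10.6 ± 0.547 with interferon-gamma and 5.36 ± 0.437 in controls. Of 3199 other tested genes with a mean CPM within 2-fold of that of Cfap69, 78 had a log2 fold change at least as high. Cfap69 too was chosen for its rise, so this standing carries no test. The implied length was 3233 to 3295 bases with interferon-gamma and 3234 to 3426 bases in controls, shorter than the 4956 exon bases of the longest transcript, Cfap69-201.

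Steap2, which encodes a metalloreductase for iron and copper, lies just upstream on the same strand, with its 3′ end 596 bases before the start of Cfap69 in RefSeq and 589 bases in GENCODE. It rose to 263 ± 6.70 CPM with interferon-gamma, against 112 ± 4.57 CPM in controls (log2 1.23 ± 0.041, edgeR adjusted p = 2.22e-14). Steap1, the next gene at 72.1 kb, rose by 1.18 ± 0.071 (edgeR adjusted p = 2.26e-12). Both rises entered the choice of Cfap69. The Cfap69 count was 8.43%, 9.61% and 8.07% of the Steap2 count with interferon-gamma, against 9.83%, 10.0% and 9.28% in controls. It was 27.0%, 28.8% and 23.3% of the Steap1 count with interferon-gamma, against 28.2%, 28% and 28.6% in controls. Both shares overlapped between the groups, unlike that of Kyat3 to Gbp2. Whether transcripts of Steap2 run on into Cfap69 cannot be read from counts per gene and was not tested.

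Downstream of Cfap69 the values were near 0 or small. Gtpbp10, 19.7 kb away, had a log2 fold change of -0.01 (edgeR adjusted p = 0.982) and Cdk14, 199 kb away, had -0.02 (edgeR adjusted p = 0.86). The claudin gene Cldn12, 64.3 kb away, rose by 0.27 ± 0.045 on the log2 scale (edgeR adjusted p = 0.000423). Of the STEAP genes outside this locus, Steap4 had 13, 15 and 23 counts with interferon-gamma and 1, 1 and 0 in controls (edgeR adjusted p = 4.93e-06). It passed the low-count filter only through its interferon-gamma libraries. Steap3 had log2 -0.15 (edgeR adjusted p = 0.11).

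Among 28 other cilia and flagella associated genes, 22 had values but 7 were tested, with 1 rise, 1 fall and a median log2 fold change of -0.09. Over all genes tested, 19.9% rose and 18.1% fell. Cfap298, needed to assemble ciliary dyneins, rose by 0.38 (44.1 ± 2.85 CPM with interferon-gamma and 34.0 ± 1.94 CPM in controls, edgeR adjusted p = 0.000123). Cfap97 fell by 0.19 on the log2 scale (edgeR adjusted p = 0.0357), a call lost with DESeq2 (adjusted p = 0.0783) and without control replicate 3 (adjusted p = 0.146), interferon-gamma replicate 2 (adjusted p = 0.0894) or interferon-gamma replicate 4 (adjusted p = 0.0695). The 15 with values but too low to be tested had 8 counts or fewer in every library. Of 8 ciliated cell and sperm markers, 4 had values, summed to 1.82 to 2.34 CPM with interferon-gamma and 1.76 to 2.07 CPM in controls. Ccdc39 and Rsph1 were tested and did not pass, and the master regulator gene Foxj1 had 2 to 4 counts per library.

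**Figure D3:**
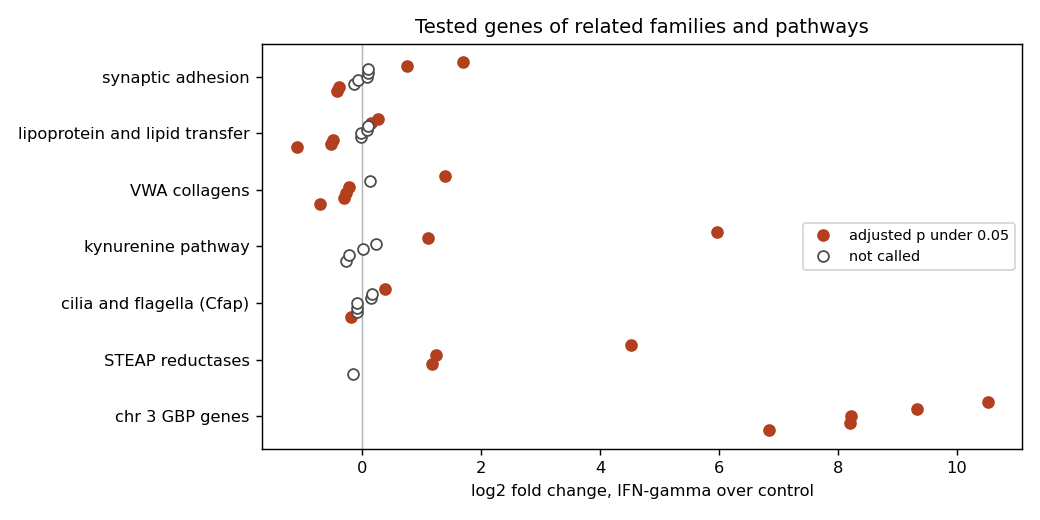
Log2 fold change (interferon-gamma over control) of each tested gene in 7 related families and pathways, filled where the edgeR adjusted p was under 0.05 and open otherwise, without the 6 genes themselves. The guanylate-binding proteins lie at 6.83 to 10.52, while the medians of the synaptic, lipoprotein, collagen, kynurenine and cilia lists lie between -0.25 and 0.12. Values of Gbp5, Steap4 and Ido2 start from few control counts.

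Over all 6 loci, 49 neighbours within 200 kb had values and 42 were tested, of which 19 rose, or 45.2%, beside 19.9% over all genes tested. Without the guanylate-binding protein and STEAP genes, which entered the choice, 12 of 35 rose, or 34.3%, and of these Stat2 alone rose at least 2-fold. No neighbour fell at an edgeR adjusted p under 0.05, 1 fell at an unadjusted p under 0.05, and none fell with DESeq2 or limma-voom. The loci differed: neither neighbour of Lrrtm2 passed the test, 1 of 4 rose around Col28a1, 4 of 16 around Apof, 4 of 8 around Sectm1a, 3 of 5 around Cfap69 and 7 of 7 around Kyat3. Neighbours of a locus share their surroundings and are not independent of each other.

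**Figure D4:**
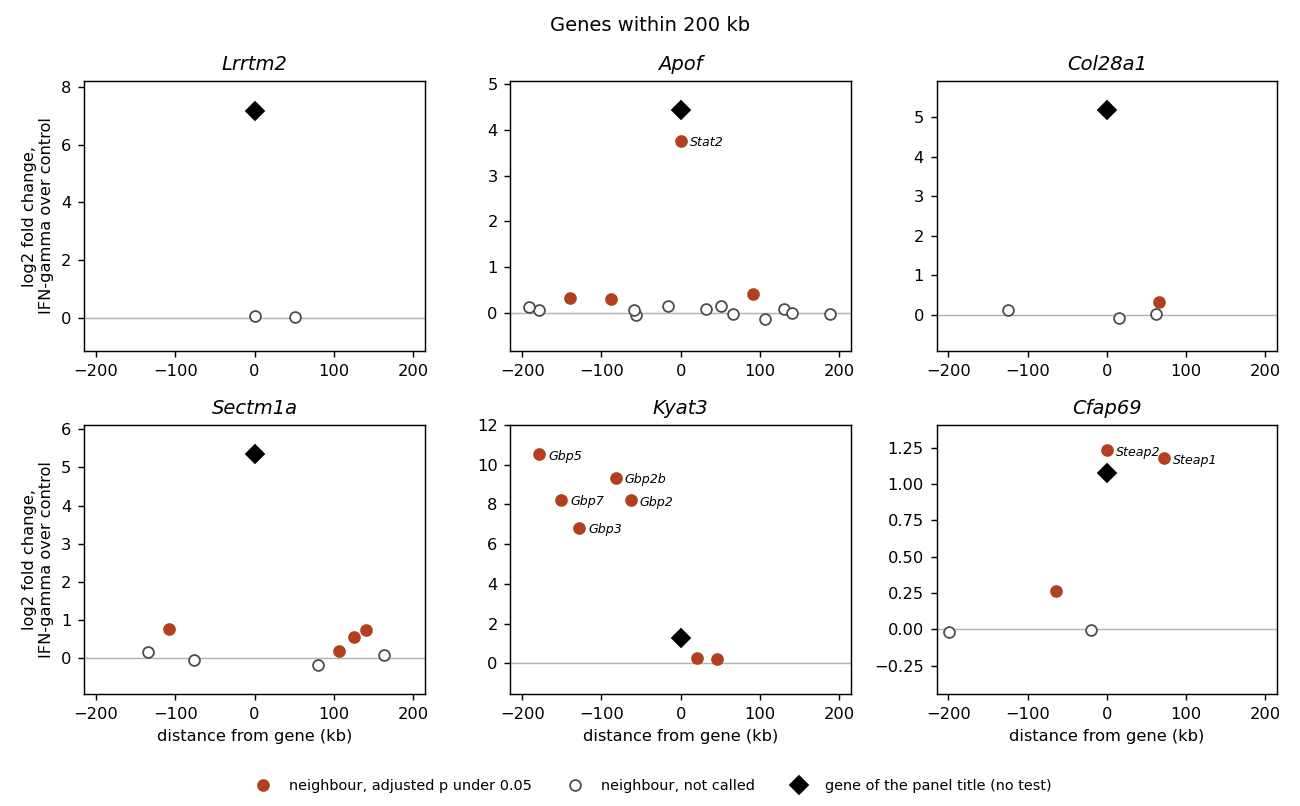
Log2 fold change (interferon-gamma over control) of each tested gene within 200 kb of the 6 genes, against distance from the gene in kb, with lower coordinates on the left and overlapping genes at 0. Black diamonds are the genes of the panel titles, whose fitted values above 4 depend on the prior count. Strong neighbours stand beside Apof, Kyat3 and Cfap69, and no neighbour of Lrrtm2, Col28a1 or Sectm1a reaches 1.

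Close same-strand neighbours of strongly rising genes were also counted over the whole table. The 6 genes were left out of the neighbours counted, but not of the rising genes. RefSeq spans were used, and spans that overlap the rising gene by under 1 kb were counted too. Such overlapping pairs can share reads and were not counted apart. Of 12 tested genes that, like Cfap69, start within 1 kb of the end of a gene risen at least 2-fold, 9 rose, or 75%. Of 45 such genes within 5 kb, 29 rose, or 64.4%, and of 124 within 20 kb, 76 rose, or 61.3%. For genes that, as Apof by its RefSeq overlap, end within 1 kb of the start of such a gene, 13 of 17 rose, or 76.5%. Of the 11223 genes placed with a strand, 20% rose. By position, Stat2 enters the counts of the first kind through Apof, and Steap2 enters those of the second kind through Cfap69. The counts are therefore not free of the pairs they stand beside. Several of these pairs lie in clusters of related genes, and the counts carry no test.

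**Figure D5:**
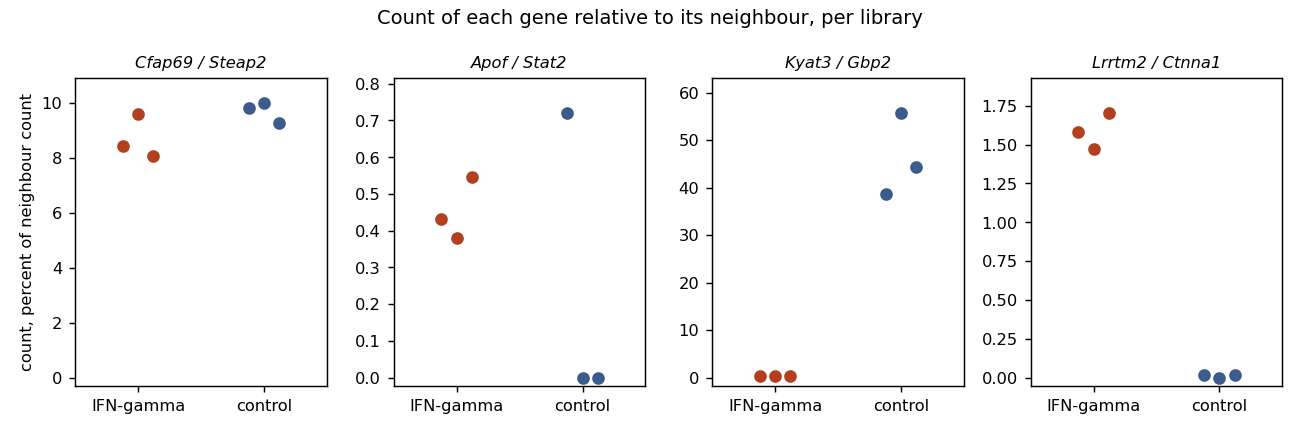
Count of a gene as a percent of the count of its neighbour in every library, with interferon-gamma on the left and control on the right of each panel. The groups overlap for Cfap69 over Steap2 and for Apof over Stat2, lie lower with interferon-gamma for Kyat3 over Gbp2, and lie higher with interferon-gamma for Lrrtm2 over Ctnna1. The Apof controls rest on 2 reads in total.

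The genes most like each of the 6 were taken as the smallest Euclidean distance of centred log2 CPM over the 6 libraries, among tested genes with a mean CPM within 2-fold. For Lrrtm2 these were the antiviral gene Oas2 (distance 0.69), Serpina3i (0.73) and Ifi44 (0.76), of 1173 genes compared. For Apof they were Slfn2 (0.52), Apol11b (0.61) and Ifit1bl2 (0.64), of 402. For Col28a1 they were Eif4e3 (0.69), Oas3 (0.71) and Pdzd2 (0.84), of 764, and for Sectm1a they were Rassf4 (0.63), Oas1a (0.83) and Hsf5 (0.87), of 453. The choice of these 4 genes as low in controls and high with interferon-gamma fixes that their nearest genes have the same shape. Kyat3 was nearest to Rgma (0.24), Rab30 (0.34) and Stx11 (0.38), of 1866, and Cfap69 to Dram1 (0.13), Adamts4 (0.17) and Irak2 (0.18), of 3199. The distances describe 6 libraries of 2 groups and carry no test.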

How the data were processed

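Per the labels' protocols, libraries were made from total RNA and read on a DNBSEQ instrument. Per the submitters' processing notes, the tools were HISAT and HISAT2 and the builds mm10 and GRCm38.p6, without roles. The counting program and its use of strand are not given in the sources used here. Counts per gene are estimated counts as deposited. In each library 6.8% to 7.37% of them had decimals, and they were rounded to whole numbers for tests. TPM and FPKM values, deposited beside them per the file headers, scale for length and entered no test. Where nothing says that replicates came from separate cultures, p-values measure only the spread between these samples, which may be technical.

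The members and lists were chosen with earlier results of these data known. edgeR 4.0.16 (R 4.3.3) compared interferon-gamma with control over 11423 genes that passed filterByExpr (minimum count 10), with TMM scaling, robust quasi-likelihood fits and Benjamini-Hochberg adjustment, at a threshold of 0.05. The other 3278 genes were not tested. CPM are counts per effective library size. Standard errors of fold changes come from the replicates' log2 CPM with a prior count of 2, which makes them too small for genes of few counts. Ratios of totals carry exact 95% binomial intervals.

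Positions came from RefSeq on GRCm38.p6, matched through gene identifiers (14654 of 14701 genes). Strands and transcripts were those of GENCODE M21, since the deposited strand matched it for 88.2% of 14196 genes. The text names the 6 genes, neighbours within 200 kb (up to 12 per gene), up to 6 genes of smallest adjusted p per list and the 3 nearest patterns. Baz2a, Lrrtm4, Tubb3 and other markers, and genes too low to be tested, were named after their values were seen. Tested on simulated data with 200 changed genes of 11423, edgeR recovered 88% of genes changed 1.5-fold and 98% of those changed 2-fold. Alternatives were DESeq2 1.42.0, limma-voom (limma 3.58.1), RLE, upper-quartile and total-count scaling, other filters, a replicate block, each library left out, and windows of 100 and 500 kb. Tables and figures were made in Python 3.11.15 (pandas 2.3.3, numpy 2.4.6, matplotlib 3.10.9, scipy 1.17.1). A few single genes of the lists are not reported here.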

Additional observations from a re-analysis of the deposited data

How the results depend on the processing

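The direction of the 6 genes was fixed by their choice and says nothing about stability. With a prior count of 0.5 in place of 2, the log2 CPM difference of Lrrtm2 was 6.78 (5.45 with 2), that of Apof 4.32 (2.88), that of Col28a1 4.76 (3.49) and that of Sectm1a 4.68 (3.12), since the prior count decides the value of genes with 1 or 2 control counts. With each library left out in turn, the log2 CPM difference was 5.25 to 5.54 for Lrrtm2, 2.70 to 3.20 for Apof, 3.29 to 3.66 for Col28a1, 2.95 to 3.3 for Sectm1a, 1.15 to 1.39 for Kyat3 and 1.01 to 1.10 for Cfap69.

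Over all genes, falls numbered 3124 on total counts, against 2069. Leaving out each library gave 1851 to 2187 rises and 1710 to 2025 falls. Of 42 neighbours tested within 200 kb, 19 rose, beside 19.9% over all genes tested, and 17 to 19 rose with a library left out. Without the guanylate-binding protein and STEAP genes, 12 of 35 rose. Within 100 kb 11 rose and within 500 kb 31 rose. The numbers tested in those windows are not given here, so their counts cannot be set beside a share. Falls among the neighbours were 0, but 1, the gene Ankrd52, with upper-quartile scaling, on total counts and with the replicate block, 0 to 1 with a library left out, and 7 within 500 kb. Of 46 family genes tested, 16 rose and 10 fell (14 to 16 and 9 to 10 with a library left out). The shares over all genes tested were 19.9% and 18.1%. Without the guanylate-binding protein and STEAP genes, 8 family genes rose. Leaving those genes out was chosen after seeing the data. Over 68 single genes and 951 settings, 901 calls stayed, 31 were lost, 19 were gained and 0 turned round.

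Both groups share the replicate numbers 2 and 4, and their samples deviated from the group means with r = 0.13 and -0.09. Crossed numbers gave r = 0.01 and -0.07. So few pairs cannot tell whether a shared number marks a common culture or day. With the replicate numbers 2 and 4 as a block, 2060 genes rose and 2006 fell, 18 neighbours rose, and 15 family genes rose and 10 fell. Under the block the adjusted p was 0.052 for Coq10a, 0.103 for Pltp, 0.122 for Hexdc and 0.144 for Cfap97.

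Depth limits the nearly silent genes: 1 or 2 control counts leave the ratio with the wide intervals given. Genes with no control read have no values here.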
